A study of Mus musculus with 6 samples.

Results

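The insulin-like growth factor (IGF) genes described here are 10 rows of a mouse gene count table with 21778 rows, picked by symbol: the ligand genes Igf1 and Igf2, the receptor genes Igf1r and Igf2r, the binding protein genes Igfbp2, Igfbp3, Igfbp4, Igfbp5 and Igfbp6, and Igf2bp3, which encodes an RNA-binding protein. All 10 were in the table and all 10 passed the filter on low counts. Poly(A) RNA came from primary myoblasts of hindlimb muscle, sorted as double positive for alpha7-integrin and CD34 and kept for 24 h in differentiation medium with horse serum on Matrigel. The Hdac11-/- group (KO) held 3 libraries and the wild-type group (WT) held 3. KO mice carried a germline deletion of the third exon of Hdac11, made by crossing floxed C57BL/6 mice with mice that express Cre under the SOX2 promoter. The WT controls were littermates. Age was not given in the labels, and nothing says whether each culture came from a separate animal, so errors and p-values describe the spread between cultures. The comparison asked how loss of Hdac11, the class IV histone deacetylase, affects transcripts at day 1 of differentiation.

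IGF-1 and IGF-2 are secreted peptides that activate the receptor tyrosine kinase IGF1R, and in myoblasts they are known both to sustain proliferation and to drive differentiation. IGF-2 is made by differentiating myoblasts themselves and acts in an autocrine loop, while IGF2R, the mannose-6-phosphate receptor, binds IGF-2 and carries it to lysosomes. The secreted IGF-binding proteins hold the ligands in the medium or the matrix and limit or prolong their access to the receptor.

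Libraries are numbered as in their labels. Total counts ran from 16742457 to 20287743 in KO libraries and from 19673388 to 22835394 in WT libraries. Hdac11 was at 33.5, 76.4 and 30.2 CPM (reads of the gene relative to the scaled library size) in the 3 KO libraries, against 63.0, 79.5 and 73.8 CPM in WT. The library labelled KO replicate 2 therefore lay within the WT range, and it is part of all KO values below except where its removal is stated. Counts over the whole gene cannot tell if an exon is missing. All 8 myogenic markers were detected in every library. In edgeR 0 of them passed, beside 0.0% of all tested genes in each direction. The regulator gene Myod1 was at 922 to 1206 CPM in KO and 892 to 1329 CPM in WT, and Myf5 at 22.1 to 34.5 CPM in KO and 18.3 to 39.7 CPM in WT. KO values were below all WT values for 3 of the 8, Myog, Itga7 and Des (10.2% of all tested genes). Des, the muscle intermediate filament gene, was at 852 to 1370 CPM in KO and 1768 to 2055 CPM in WT (edgeR adjusted p = 0.178). DESeq2 called 1 of the 8, Des, lower (2.21% of tested genes). The authors' deposited table did so too (1.43% of its genes), with an adjusted p of 0.017 for Des. With the library labelled KO replicate 2 left out, DESeq2 called 0 of the 8 lower (186 of all 14835 tested genes). KO values were above all WT values for 1 of the 8, Pax7, a satellite cell marker (13.2% of all tested genes). Pax7 was at 82.3 to 127 CPM in KO and 54.6 to 77.0 CPM in WT (edgeR adjusted p = 0.204). Of 8 fibroblast markers 5 were in the table, with a summed level of 1.48 to 3.09 CPM in KO and 1.21 to 2.21 CPM in WT, and 0 of them was at 0 in all libraries. Endothelial markers (4 of 6 in the table) summed to 1.48 to 4.01 CPM in KO and 1.59 to 2.86 CPM in WT, and immune markers (4 of 6) to 5.31 to 7.02 CPM in KO and 5.30 to 15.9 CPM in WT. Schwann cell markers (3 of 4) summed to 3.45 to 5.23 CPM in KO and 6.11 to 10.4 CPM in WT, and tendon markers (2 of 3), mostly Scx, to 52.2 to 82.1 CPM in KO and 64.8 to 83.5 CPM in WT. Mural cell markers (3 of 4) summed to 71.8, 36.7 and 28.8 CPM in KO libraries 1 to 3, against 89.4, 285.2 and 128.0 CPM in WT, with the largest part in each library from Abcc9, a potassium channel subunit gene that muscle cells express too. The part of these cell types in the values below was not tested.

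The promoters of 4 genes are shown first. Igfbp2 and Igf2bp3 had the lowest fold changes and, by the distance given below, the closest pattern over the libraries. Igf1 and Igfbp4 had the widest spread. The windows are the 250 bases before the most upstream start listed for each gene in a RefSeq table of GRCm38.p6, in which all 10 symbols matched, with 14 starts in all. The windows of Igf2bp3, Igf1 and Igfbp4 lie inside the gene spans given below, downstream of the outer end. That of Igfbp2 ends just before its span. Igfbp2 is at chr1:72824230-72824479 on the plus strand, Igf2bp3 at chr6:49214955-49215204 on the minus strand, Igf1 at chr10:87860861-87861110 on the plus strand and Igfbp4 at chr11:99040994-99041243 on the plus strand. Capitals mark each match to CANNTG, the E-box that basic helix-loop-helix factors such as MyoD and myogenin bind, read 5' to 3'.
Igfbp2: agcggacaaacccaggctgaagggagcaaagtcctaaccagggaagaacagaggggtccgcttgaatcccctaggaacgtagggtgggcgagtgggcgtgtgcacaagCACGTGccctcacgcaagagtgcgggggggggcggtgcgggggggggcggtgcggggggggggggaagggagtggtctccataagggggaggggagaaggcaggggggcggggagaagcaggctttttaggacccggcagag
Igf2bp3: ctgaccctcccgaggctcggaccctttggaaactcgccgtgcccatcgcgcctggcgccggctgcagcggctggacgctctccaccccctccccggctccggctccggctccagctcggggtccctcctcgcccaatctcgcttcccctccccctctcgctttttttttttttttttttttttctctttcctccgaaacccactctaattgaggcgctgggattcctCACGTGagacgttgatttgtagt
Igf1: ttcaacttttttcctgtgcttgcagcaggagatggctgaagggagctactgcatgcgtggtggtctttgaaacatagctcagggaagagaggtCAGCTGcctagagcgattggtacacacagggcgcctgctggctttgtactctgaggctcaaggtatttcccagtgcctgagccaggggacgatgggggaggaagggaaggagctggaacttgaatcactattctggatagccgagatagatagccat
Igfbp4: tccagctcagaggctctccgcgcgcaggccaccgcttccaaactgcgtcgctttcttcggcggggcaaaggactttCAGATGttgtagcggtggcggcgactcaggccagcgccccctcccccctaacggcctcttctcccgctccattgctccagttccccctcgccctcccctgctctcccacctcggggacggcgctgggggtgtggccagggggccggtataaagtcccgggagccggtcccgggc
The single E-box was CACGTG in both Igfbp2 and Igf2bp3, CAGCTG in Igf1 and CAGATG in Igfbp4. CANNTG reads as CANNTG on both strands, and CAGCTG and CACGTG are matches within it. Over 32851 windows of the same length, 66.2% held CANNTG, 13.0% held CAGCTG and 6.02% held CACGTG, a motif counted after these sequences had been read. Among the 14 starts of the 10 genes, 10 held CANNTG, 1 held CAGCTG and 3 held CACGTG, the third in the window of Igf2r. Binding of any factor was not measured.

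No gene of the 10 passed the test between genotypes. In edgeR's quasi-likelihood test with Benjamini-Hochberg adjustment over 14835 tested genes, 0 members were higher and 0 lower in KO at an adjusted p of 0.05, and the same held for 0.0% of all tested genes in each direction. At an unadjusted p under 0.05, 0 members were higher (9.88% of all tested genes) and 1 was lower (7.83%), which is near the background. DESeq2 called 0 members higher (4.13% of tested genes) and 0 lower (2.21%), with 2 lower at an unadjusted p under 0.05 (9.59%). limma-voom called 0 in either direction, and at an unadjusted p under 0.05 it had 0 higher (10%) and 0 lower (7.19%). The authors' deposited table also held 0 members higher (2.81% of its genes) and 0 lower (1.43%). KO and WT values overlapped for all 10, while they did not overlap for 23.4% of tested genes. Of the 10 fold changes 3 were positive and 7 negative, with a median log2 fold change of -0.36, beside -0.0090 over all tested genes. With scaling by library totals 4 were positive and 6 negative, with a median of -0.20, beside 0.14 over all tested genes. Without KO replicate 3 there were 5 positive and 5 negative, with a median of -0.07. Without KO replicate 1 the median was -0.78.

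**Figure D1:**
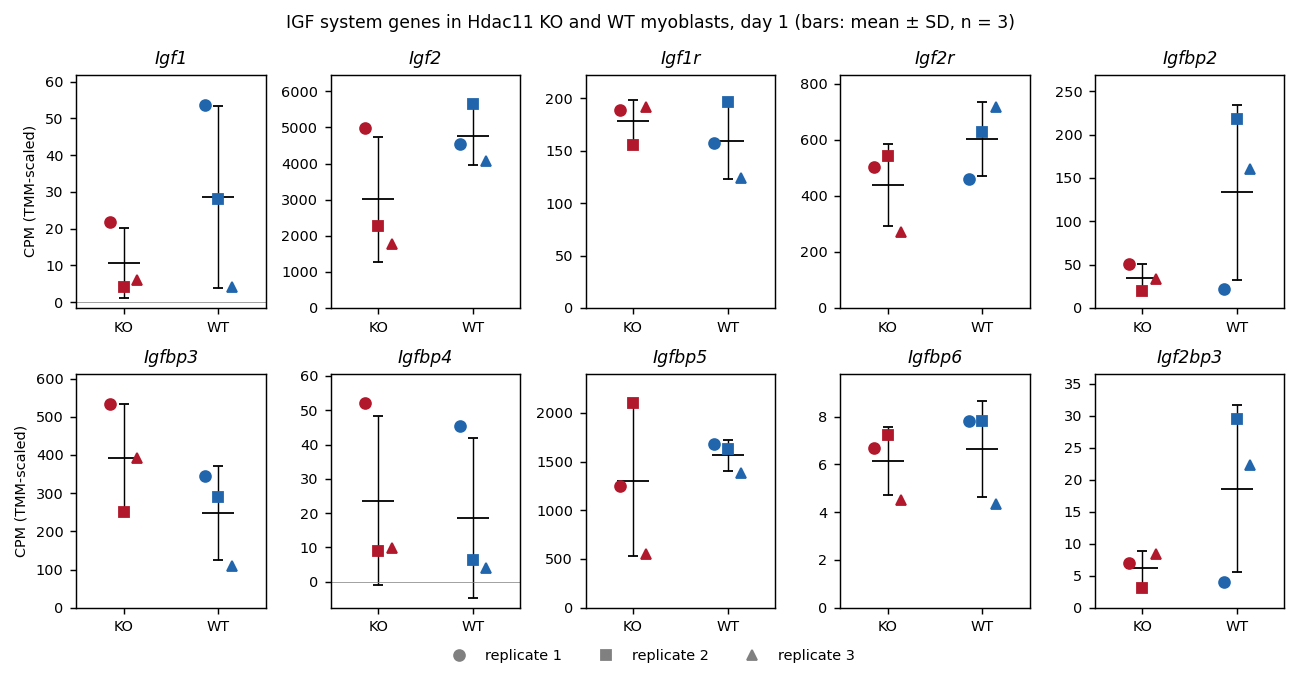
CPM of each of the 10 genes in the 3 KO libraries (red, left) and the 3 WT libraries (blue, right), on linear axes that differ between panels; the black bars are means ± SD with n = 3. The 2 genotypes overlap in every panel, and replicate numbers name libraries without pairing them.

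Of the ligands, Igf2 was by far the more abundant transcript. It lies at chr7:142650768-142666816 on GRCm38 and is expressed from the paternal allele. Its level was 4980.0, 2277.7 and 1763.5 CPM in KO libraries 1 to 3, against 4550.3, 5660.3 and 4083.2 CPM in WT. The libraries labelled KO replicates 2 and 3 were below every WT library, whereas KO replicate 1 was within the WT range. The means were 3007 ± 1728 CPM in KO and 4765 ± 810.1 CPM in WT (SD, n = 3 each), a log2 fold change of -0.66 with a 95% interval of -1.60 to 0.27 (edgeR adjusted p = 0.406). Without KO replicate 1 the value was -1.24, and without KO replicate 3 it was -0.39. The antisense gene Igf2os was at 7.16 to 9.76 CPM in KO and 6.80 to 18.5 CPM in WT. The strand setting of the counting is not given in the sources used here, so reads of Igf2 and Igf2os cannot be told apart.

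Igf1, at chr10:87858265-87937047, was low and uneven. Its level was 21.7, 4.16 and 6.16 CPM in KO libraries 1 to 3, against 53.7, 28.1 and 4.02 CPM in WT. WT replicate 3 was the lowest of all 6 libraries and WT replicate 1 the highest, a 13.3-fold range that spanned the KO values. The log2 fold change was -1.42 with a 95% interval of -3.55 to 0.70 (edgeR adjusted p = 0.436), and it was -2.47 without KO replicate 1 and -0.57 without WT replicate 1. Per kilobase of exon, a scale meant for comparing genes, Igf2 exceeded Igf1 414-fold, 989-fold and 517-fold in KO libraries 1 to 3. In WT it did so 153-fold, 364-fold and 1833-fold. The lengths used, 9921 nt for Igf1 and 5493 nt for Igf2, join all annotated exons, so these ratios are approximate. Igf2 made up 99.35% to 99.95% of the summed ligand transcripts across the 6 libraries. The partner Igf1os had 0 to 3 reads per library.

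Transcripts of the signalling receptor varied little. Igf1r, at chr7:67952257-68233668, was at 188.8, 155.9 and 191.7 CPM in KO libraries 1 to 3, against 157.3, 196.6 and 124.2 CPM in WT. The KO values lay within the wider WT range, and WT replicate 3 was below every KO library. For Igf1r the log2 fold change was 0.17 with a 95% interval of -0.30 to 0.63 (edgeR adjusted p = 0.688), the narrowest interval of the 10. An increase of 2-fold or a decrease of 2-fold, which would be log2 values of 1 and -1, lies outside it. Insr, the insulin receptor, which can form hybrids with IGF1R, was at 68.3 ± 17.8 CPM in KO and 86.6 ± 13.4 CPM in WT (SD, n = 3 each).

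Igf2r, at chr17:12682406-12769706 and expressed from the maternal allele in the mouse, was at 501.9, 541.7 and 270.3 CPM in KO libraries 1 to 3, against 460.1, 629.8 and 719.1 CPM in WT. KO replicate 3 was the lowest library, and the other KO libraries were between WT replicates 1 and 2. In edgeR the log2 fold change of Igf2r was -0.46 with a 95% interval of -1.16 to 0.24 (edgeR adjusted p = 0.441). Airn, the antisense RNA that overlaps Igf2r, was at 13.0, 9.31 and 10.4 CPM in KO libraries 1 to 3, against 13.3, 24.4 and 31.1 CPM in WT. These values did not overlap. Airn did not pass in edgeR (log2 fold change -1.07, adjusted p = 0.200) but passed in the authors' deposited table (log2 fold change -0.95, adjusted p = 0.0415), and it was looked up after the receptor values were seen. As with Igf2 and Igf2os, reads of Igf2r and Airn cannot be told apart where the genes overlap. Per kilobase of exon, Igf2r over Igf1r was 1.26, 1.65 and 0.669 in KO libraries 1 to 3, against 1.39, 1.52 and 2.75 in WT.

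Among the binding proteins Igfbp5 was the most abundant. It encodes the form best known from differentiating myoblasts, and it lies at chr1:72858065-72874865, next to Igfbp2. Its level was 1245.0, 2098.6 and 554.5 CPM in KO libraries 1 to 3, against 1679.7, 1629.5 and 1384.8 CPM in WT. The library labelled KO replicate 2 was the highest of the 6 and KO replicate 3 the lowest, so the KO libraries lay on both sides of a tight WT group. The means were 1299 ± 773.5 CPM in KO and 1565 ± 157.8 CPM in WT (SD, n = 3 each). The log2 fold change was -0.27 with a 95% interval of -1.27 to 0.73 (edgeR adjusted p = 0.766), and it was 0.10 without KO replicate 3 and -0.80 without the library labelled KO replicate 2.

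Igfbp3 encodes the main carrier of IGFs in serum and lies at chr11:7206086-7215498. Its level was 534.1, 250.2 and 392.8 CPM in KO libraries 1 to 3, against 344.4, 288.7 and 108.2 CPM in WT. KO replicates 1 and 3 were above all WT libraries, while the library labelled KO replicate 2 was below WT replicates 1 and 2. For Igfbp3 the log2 fold change was 0.67 with a 95% interval of -0.37 to 1.70 (edgeR adjusted p = 0.452).

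Igfbp2, at chr1:72824480-72852474, encodes a binding protein that can also contact integrins. Its level was 50.9, 19.6 and 33.7 CPM in KO libraries 1 to 3, against 22.1, 218.0 and 160.2 CPM in WT. WT replicates 2 and 3 stood above all others, while WT replicate 1 lay among the KO libraries. The means were 34.7 ± 15.7 CPM in KO and 133.4 ± 100.7 CPM in WT (SD, n = 3 each), a log2 fold change of -1.94 with a 95% interval of -3.67 to -0.21 (edgeR adjusted p = 0.245). Igfbp2 was the member with an unadjusted p under 0.05, and it had the lowest fold change of the 10. Over the 14 alternatives its adjusted p ran from 0.108, without WT replicate 1, to 0.592.

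Igf2bp3 resembled it. The gene, at chr6:49085218-49215469, encodes an oncofetal protein that binds Igf2 mRNA and other mRNAs but not the IGF peptides. Its level was 6.97, 3.13 and 8.42 CPM in KO libraries 1 to 3, against 4.09, 29.5 and 22.2 CPM in WT. Again WT replicates 2 and 3 were high and WT replicate 1 was within the KO range. In edgeR Igf2bp3 had a log2 fold change of -1.59 with a 95% interval of -3.19 to 0.0047 (edgeR adjusted p = 0.283). In the authors' deposited table Igf2bp3 had an adjusted p of 0.0977 and Igfbp2 one of 0.207. The paralog Igf2bp1, at 5.88, 1.83 and 4.52 CPM in KO libraries 1 to 3, against 3.88, 17.2 and 12.4 CPM in WT, also had its 2 highest values in WT replicates 2 and 3 and its lowest in KO replicate 2. Igf2bp2, the third paralog, was at 100.4 ± 7.99 CPM in KO and 100.7 ± 11.7 CPM in WT (SD, n = 3 each), a log2 fold change of -0.0051 with a 95% interval of -0.35 to 0.34.

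Igfbp4 and Igfbp6 had the lowest mean levels of the binding protein transcripts, although Igfbp4 was above Igfbp2 in replicate 1 of both genotypes in CPM. Igfbp4, whose product is cleaved by the protease PAPP-A, lies at chr11:99040005-99052655 and was at 52.1, 9.04 and 9.72 CPM in KO libraries 1 to 3, against 45.3, 6.23 and 4.02 CPM in WT. One library of each genotype, replicate 1 in both, was far above the rest. The log2 fold change of 0.34 had a 95% interval of -2.03 to 2.72 (edgeR adjusted p = 0.882), and it was -0.99 without KO replicate 1 and 2.22 without WT replicate 1. Igfbp6, whose product prefers IGF-2 to IGF-1, lies at chr15:102144186-102149512 and was at 4.52 to 7.25 CPM in KO and 4.34 to 7.84 CPM in WT. Its log2 fold change was -0.11 with a 95% interval of -0.89 to 0.66, and 0.04 with scaling by library totals.

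**Figure D2:**
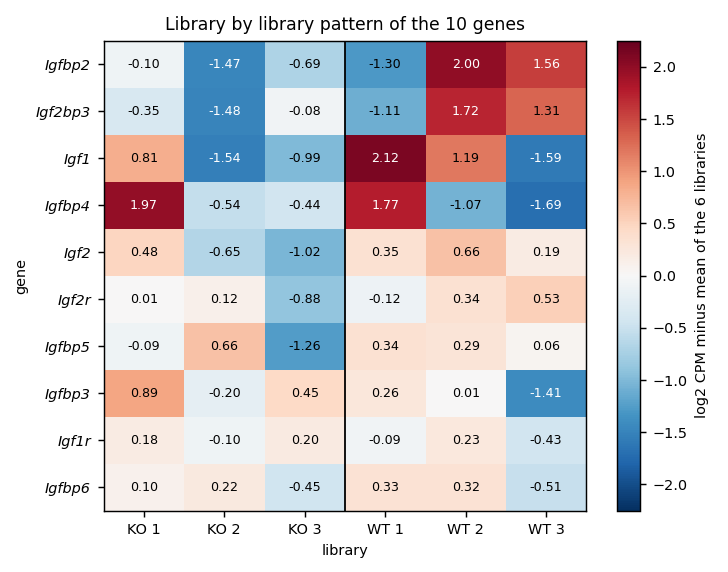
Heat map of log2 CPM minus the mean of the 6 libraries, with genes down the page and libraries across, KO left of the line and WT right of it. Igfbp2 and Igf2bp3 are highest in WT replicates 2 and 3, at 2.00 and 1.56 for Igfbp2, while Igfbp4 is highest in KO replicate 1 (1.97) and WT replicate 1 (1.77).

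The spread between libraries of one genotype was wide for these genes. The within-group SD of log2 CPM was 1.65 for Igfbp4, 1.62 for Igf1, 1.36 for Igfbp2 and 1.20 for Igf2bp3. Over 10811 tested genes with a mean of at least 5 CPM the median SD was 0.25 and the 90th percentile 0.61. All 10 members were above that median and 6 were above the 90th percentile, with Igf1r the nearest to the median at 0.26. Igf2, at 0.58, was at the 88.9th percentile of these genes.

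Likeness between members was measured as the root mean square distance of log2 CPM centred on the 6 libraries. A smaller value means that the centred values lie closer together in each library. The distance is not scaled for spread, so genes that vary little lie close to each other whatever the order of their libraries. Igfbp2 and Igf2bp3 were the closest pair, at 0.32, and Igfbp2 and Igfbp4 the most distant, at 2.40. Igfbp2 and Igfbp5, which neighbour each other in the genome, were 1.45 apart. Igf1 and Igfbp4 were 1.15 apart, with WT replicate 2 high for Igf1 and low for Igfbp4. Among 7595 tested genes with a mean of at least 20 CPM, the 5 nearest to Igf2 were Tmem120b, Dnajb9, Dusp27, Klhl40 and Lrpap1, at distances of 0.091 to 0.164. Klhl40 encodes a protein that stabilises thin filament proteins in muscle, and it was at 109.2, 66.4 and 42.3 CPM in KO libraries 1 to 3, against 134.1, 160.4 and 106.1 CPM in WT. The 5 nearest to Igfbp5 were Hexa, a lysosomal enzyme gene, Olfml2b, Amigo1, H2-K1 and Ifi27, at 0.156 to 0.238.

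Markers of differentiation and division differed between the same libraries. The summed level of 8 contractile genes, among them Myh3, Ttn and Ckm, was 21128, 9698 and 7332 CPM in KO libraries 1 to 3, against 17989, 50378 and 42004 CPM in WT. The sums overlapped, and Myh3 was the largest part in each library. All 8 fold changes were negative, and edgeR called 0 of these genes. DESeq2 called 7 lower (2.21% of tested genes), and so did the authors' deposited table (1.43% of its genes). With the library labelled KO replicate 2 left out, DESeq2 called 1 lower, Neb (186 of all 14835 tested genes). On all 6 libraries limma-voom called 0 of the 8 (0.0% of tested genes). KO values were below all WT values for 4 of the 8 (10.2% of tested genes). The libraries highest for Igfbp2, Igf2bp3 and Igf2bp1, WT replicates 2 and 3, were also highest for these genes. The order of the KO libraries was the same for Igf2 and for the contractile sum, with replicate 1 highest and replicate 3 lowest. The order of the WT libraries was not the same. WT replicate 2 was highest for both, but the lowest was WT replicate 3 for Igf2 and WT replicate 1 for the contractile sum. The summed level of 8 genes of dividing cells was 1133, 929 and 1405 CPM in KO libraries 1 to 3, against 532.2, 303.9 and 454.1 CPM in WT. KO values were above all WT values for all 8 (13.2% of tested genes), and edgeR called 0 of them. DESeq2 called all 8 higher (4.13% of tested genes), and so did the authors' deposited table (2.81% of its genes). With the library labelled KO replicate 2 left out, DESeq2 again called all 8 (618 of all 14835 tested genes). On all 6 libraries limma-voom called 0 of the 8 (0.0% of tested genes). The part of either list in the values of the IGF genes was not tested, and in bulk RNA fewer cells of a type and less RNA per cell cannot be told apart.

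**Figure D3:**
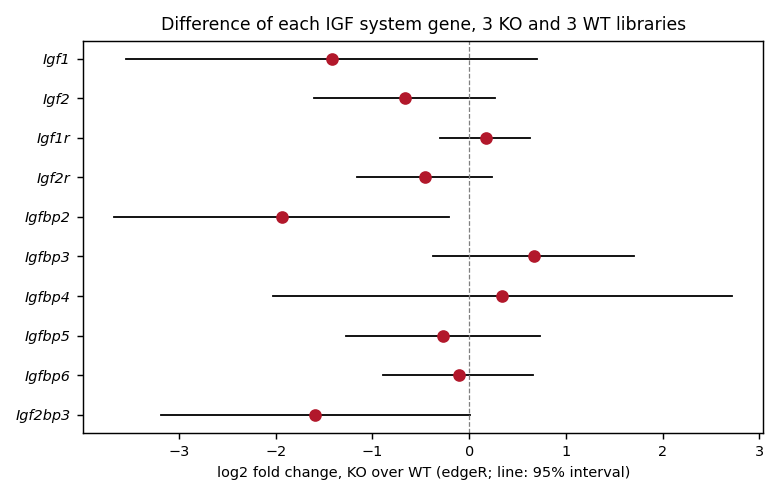
Log2 fold change of each gene, KO over WT, from edgeR (point) with its 95% interval (line). The interval of Igf1r is the narrowest, from -0.30 to 0.63, and that of Igfbp4 the widest, from -2.03 to 2.72; 9 of the 10 intervals include 0, and none of the 10 genes passed after adjustment.

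On the scale per kilobase of exon, the order of mean levels in KO was Igf2, Igfbp5, Igfbp3, Igf2r, Igf1r, Igfbp2, Igfbp4, Igfbp6, Igf2bp3 and Igf1. In WT the mean of Igfbp2 stood between those of Igfbp3 and Igf2r, and the order was otherwise the same. Those 3 means, 72.2 ± 54.5 CPM per kb for Igfbp2, 79.0 ± 39.4 for Igfbp3 and 63.9 ± 13.9 for Igf2r in WT, were not apart by more than their spread, and Igfbp2 was at 11.9 CPM per kb in WT replicate 1. Igf2 averaged 547 ± 315 CPM per kb in KO and 867 ± 147 CPM per kb in WT (SD, n = 3 each). Igfbp5 averaged 216 ± 129 CPM per kb in KO and 260.5 ± 26.3 CPM per kb in WT. Igf2r and Igf1r, at 46.4 ± 15.5 and 40.0 ± 4.44 CPM per kb in KO, were not apart by more than their spread. Igf2bp3 and Igf1, at 1.42 ± 0.629 and 1.08 ± 0.968 CPM per kb in KO, were not either. The exonic lengths come from GENCODE vM1 and join all annotated exons, so levels of genes with many alternative exons, such as Igf1 and Igf2, are understated.

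The sum of both ligands over the sum of the 5 binding proteins, per kilobase, gave a ratio of transcripts in each library. It was 2.10, 0.922 and 1.32 in KO libraries 1 to 3, against 1.95, 2.10 and 2.08 in WT. KO replicate 1 lay within the WT range and the other KO libraries lay below it. The mean was 1.44 ± 0.598 in KO and 2.04 ± 0.0833 in WT (SD, n = 3 each), and the values overlapped. Igfbp5 and Igfbp3 made up most of the binding protein transcripts. Igfbp2 was 6.36%, 2.35% and 7.47% of them in KO libraries 1 to 3, against 2.79%, 24.0% and 24.3% in WT. Igfbp3 was 39.4%, 17.8% and 51.4% of them in KO, against 25.7%, 18.8% and 9.67% in WT.

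**Figure D4:**
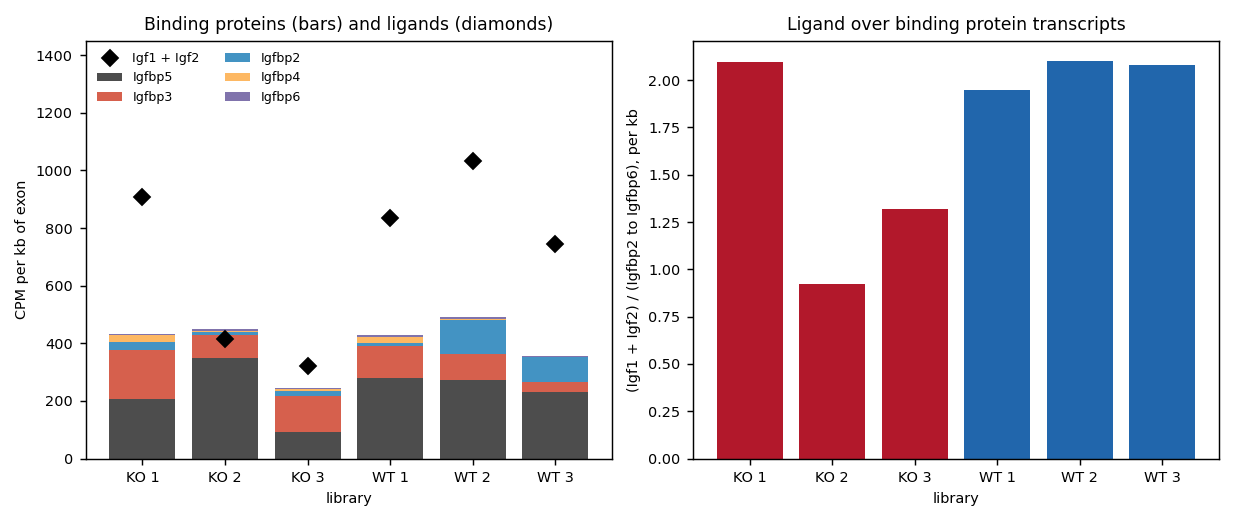
Left, stacked bars of the 5 binding protein transcripts in CPM per kb of exon for each library, with diamonds for the sum of Igf1 and Igf2 on the same axis; right, the ratio of these sums. The 3 WT ratios sit between 1.95 and 2.10, and those of the KO libraries at 2.10, 0.922 and 1.32.

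The rest of the IGF system was followed in a list of 20 further genes of receptors, carriers, proteases and paralogs, of which 16 were in the table and 15 were tested. In edgeR 0 were higher and 0 lower after adjustment, while 4 had an unadjusted p under 0.05, of which 1 was higher (9.88% of all tested genes) and 3 were lower (7.83%). Of their fold changes 5 were positive and 10 negative, or 7 and 8 with scaling by library totals. Pappa2 encodes a protease that cleaves IGFBP3 and IGFBP5. It was at 1.09, 0.805 and 0.678 CPM in KO libraries 1 to 3, against 3.31, 6.23 and 2.44 CPM in WT. All KO libraries were below all WT libraries, with a log2 fold change of -2.20 (95% interval -3.28 to -1.13), and while edgeR did not call it (adjusted p = 0.138), DESeq2 did (adjusted p = 0.00190). The adjusted p of Pappa2 over the alternatives ran from 0.00111, in the authors' deposited table, to 0.450.

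Mmp14, a membrane-bound matrix metalloprotease gene, was at 126.9, 139.5 and 132.2 CPM in KO libraries 1 to 3, against 52.1, 64.3 and 91.7 CPM in WT. Its KO values were close together and all above WT. The log2 fold change was 0.94 with a 95% interval of 0.43 to 1.44 (edgeR adjusted p = 0.144), and DESeq2 gave an adjusted p of 0.00971, with a range of 0.00971 to 0.450 over the alternatives. Stc2, whose product inhibits PAPP-A, was at 79.8, 37.4 and 24.0 CPM in KO libraries 1 to 3, against 57.4, 128.5 and 149.8 CPM in WT, and overlapped. H19, the maternally expressed RNA next to Igf2, was at 8605 ± 1619 CPM in KO and 11444 ± 2662 CPM in WT (SD, n = 3 each; edgeR adjusted p = 0.461).

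Below the receptors, 51 of 52 listed genes of the PI3K, Akt, mTOR and MAP kinase pathways were tested. In edgeR 0 passed in either direction, while 9 had an unadjusted p under 0.05, of which 2 were higher (9.88% of all tested genes) and 7 were lower (7.83%). Of the fold changes 21 were positive and 30 negative, with a median of -0.13, but 27 were positive and 24 negative with scaling by library totals, which moved the median of all genes to 0.14. The groups were apart without overlap for 5 genes that were higher in KO (13.2% of all tested genes) and 11 that were lower (10.2%). The DESeq2 calls in this list included Mapk3, which was higher, and Pdpk1, which was lower, and so did those of the authors' deposited table.

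Pdpk1, the kinase gene whose product phosphorylates Akt, was at 91.3, 103.8 and 81.8 CPM in KO libraries 1 to 3, against 142.7, 180.3 and 158.7 CPM in WT. The groups did not overlap, with a log2 fold change of -0.80 and a 95% interval of -1.17 to -0.42 (edgeR adjusted p = 0.138). DESeq2 gave Pdpk1 an adjusted p of 0.00191, with a range of 0.000842 to 0.450 over the alternatives. Rps6kb1, encoding the S6 kinase downstream of mTOR, was at 107.2, 94.7 and 79.6 CPM in KO libraries 1 to 3, against 110.2, 188.4 and 163.9 CPM in WT. KO replicate 1 and WT replicate 1 nearly met, and no tool called the gene.

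Mapk3, which encodes the MAP kinase ERK1, was at 35.2, 55.7 and 46.4 CPM in KO libraries 1 to 3, against 28.9, 22.9 and 28.0 CPM in WT. All KO values were above all WT values. In edgeR the log2 fold change of Mapk3 was 0.78 with a 95% interval of 0.30 to 1.26 (adjusted p = 0.166), while DESeq2 gave an adjusted p of 0.0341, with a range of 0.0341 to 0.520 over the alternatives. The adaptor genes Irs1 and Irs2, which link IGF1R to PI3K, were at 64.7 ± 18.7 and 29.1 ± 10.5 CPM in KO and at 67.2 ± 20.1 and 15.8 ± 8.55 CPM in WT (SD, n = 3 each).

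**Figure D5:**
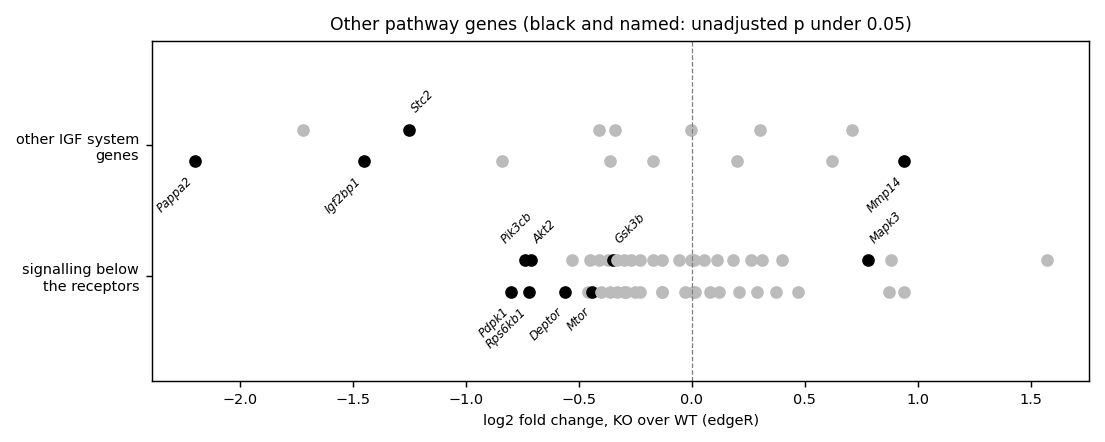
Log2 fold change, KO over WT, of the other tested genes of the IGF system (upper row, 15 genes) and of the signalling genes below the receptors (lower row, without 1 gene that is not reported here); points are offset vertically for legibility. Genes with an unadjusted p under 0.05 in edgeR are black and named, and none of them passed after adjustment.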

How the data were processed

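Poly(A) RNA libraries of 3 KO and 3 WT cultures were grouped by their titles. Per the submitters' processing notes, the tools were featureCounts, DESeq2, TopHat2 2.0.8, Bowtie2, Trimmomatic and FastQC, and the build was GRCm38. Per the file headers, the deposited table holds raw counts, a normalized signal (the authors' counts divided by 1 size factor per library), log2 fold changes with errors, a test score, p-values and adjusted p-values.

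Only the raw counts were fitted. edgeR 4.0.16 in R 4.3.3 was used with filterByExpr (14835 of 21778 genes kept), TMM scaling, quasi-likelihood F tests without covariates and Benjamini-Hochberg adjustment over all tested genes. CPM is relative to the TMM-scaled library size, and the log2 CPM used a prior count of 2. Errors were derived from the F statistic. The alternative tests were limma-voom from limma 3.58.1 and DESeq2 1.42.0, and the fits were tested on simulated data. Of 100 genes simulated with a 2-fold change, edgeR recovered 16, DESeq2 47 and limma-voom 11. Of 100 with a 4-fold change, edgeR recovered 82, DESeq2 93 and limma-voom 82. False calls numbered 7 in edgeR, 47 in DESeq2 and 6 in limma-voom. A gene that edgeR did not call can therefore still differ 2-fold. The members, lists and the rule for named genes (all members, Hdac11, up to 4 genes with the smallest p per pathway list, and the 5 genes nearest to Igf2 and to Igfbp5) were chosen with earlier results of these data known. Igf2os, Igf1os, Airn, H19, Insr, Igf2bp2, Irs1, Irs2 and the myogenic markers were named outside that rule. Fold changes and adjusted p-values of the authors' deposited table are quoted beside these fits. Listed genes that were not in the table were not analysed here. One gene of the signalling list enters the counts but is not reported here.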

Additional observations from a re-analysis of the deposited data

How the results depend on the processing

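No member passed the adjusted threshold of 0.05 under any of the 14 alternatives, where DESeq2 on all 6 libraries gave no adjusted p for Igfbp4, and Igf1, Igf2, Igf1r, Igf2r, Igfbp2, Igfbp3 and Igf2bp3 kept their sign in all of them. Counts of called genes moved with the test. DESeq2, DESeq2 with the library labelled KO replicate 2 left out (chosen after seeing the data) and the authors' deposited table held 613, 618 and 609 genes higher in KO and 328, 186 and 309 lower, against 0 and 0 in edgeR. For the other IGF system genes these settings gave 1, 0 and 1 higher and 1, 1 and 1 lower, and for the signalling genes 2, 1 and 2 higher and 1, 1 and 1 lower. The cause was not tested. Igfbp6 changed sign with scaling by library totals (0.04). With single libraries left out, the log2 fold change ran from -0.99 to 2.22 for Igfbp4, from -0.80 to 0.10 for Igfbp5 and from -0.34 to 0.06 for Igfbp6. A replicate block in edgeR called 0 genes higher and 0 lower and gave -1.66 for Igfbp2, -0.81 for Igf2 and 0.65 for Igfbp4. The labels do not tie replicate numbers to a litter or day, so the numbers were not taken as pairs. Deviations from the group mean had correlations of -0.248, -0.069 and 0.048 between same-numbered libraries. Between other KO and WT libraries they ran from -0.249 to 0.357. With 3 libraries per group these values cannot exclude pairing. The log2 fold changes in the authors' deposited table were -1.03 for Igfbp2 and -0.62 for Igf1. DESeq2 run here on the same raw counts gave -1.96 and -1.43, while Igf1r was at 0.15 in both. The deposited fold changes may therefore not be on the same scale as those fitted here, and the reason was not tested. No setting varied the depth.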
